A study of Mus musculus with 8 samples.

Results

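Neutrophil granule genes are described here in RNA of cells sorted as tumour-associated macrophages from liver metastases of MC38, a mouse colon carcinoma line. The 10 genes, of 42649 in the deposited table, were taken by symbol as a set of granule proteins: Mpo, Elane, Prtn3 and Ctsg of primary granules, Camp, Ngp, Ltf, Lcn2 and Mmp8 of secondary granules, and Mmp9 of tertiary granules. All 10 symbols were found, each under a single identifier. C57BL/6 mice, with no genetic change named, ate either a diet with 10% of its kcal from fat (CD, the controls) or a high-fat diet with 60% (HFD) for 6 weeks before the tumour cells were injected into the spleen. Cells positive for CD45, CD11b and F4/80 were sorted 19 days after the injection, with 4 mice per diet and a library from each. The diet is entered under a genotype label, and the labels used here give neither age nor sex. CD11b and F4/80 are not restricted to macrophages, and CD11b is also carried by neutrophils and monocytes.

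A neutrophil fills its granules in the bone marrow in a fixed order, and a granule protein is packed into whichever granule is forming when its gene is transcribed. Primary (azurophil) granules form in the promyelocyte and hold myeloperoxidase and serine proteases. Secondary (specific) granules form in myelocytes and metamyelocytes under the transcription factor C/EBP epsilon and hold lactoferrin, cathelicidin and collagenase. Tertiary (gelatinase) granules form last, in band cells. Mature neutrophils keep the proteins but have largely shut down transcription of the primary genes, and several later genes, Lcn2 and Mmp9 among them, can be transcribed by other cells too, macrophages included.

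The granule genes did not form a single block in these libraries. Secondary granule genes made up 87.1% to 97.6% of the summed FPKM (fragments scaled by transcript length and library size) of the 10 genes in each library. In CD replicates 3 and 4 Lcn2 had the largest share of the sum, followed by Ngp (27.3%) and Mmp8 (24.6%) in replicate 3 and by Mmp8 (24.2%) and Ngp (21.1%) in replicate 4, and in the other 6 libraries Ngp had the largest share, with Camp next. No member passed the test of HFD against CD, and the primary granule genes were at low levels throughout. Values below are TMM-scaled CPM, counts scaled to a common library size with a correction for composition, or FPKM where so marked. Genes are compared in FPKM and libraries mostly in CPM. Where class sums or single genes are compared between libraries in FPKM, no correction for composition applies.

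The letters upstream of the secondary granule genes are shown because these 5 genes, of the same granule class, had the most divergent patterns. They are from RefSeq on GRCm38.p6, 5′ to 3′ on the strand of the gene, and end before the RefSeq start and the gene span of the deposited table. Capitals mark matches to TTNNGNAA, a short form of the site bound by C/EBP factors, on either strand.
Ngp, chr9:110419597-110419746, plus strand: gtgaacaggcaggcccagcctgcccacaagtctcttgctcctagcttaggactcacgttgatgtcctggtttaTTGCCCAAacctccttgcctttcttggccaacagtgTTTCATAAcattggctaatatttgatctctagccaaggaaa
Ltf, chr9:111019121-111019270, plus strand: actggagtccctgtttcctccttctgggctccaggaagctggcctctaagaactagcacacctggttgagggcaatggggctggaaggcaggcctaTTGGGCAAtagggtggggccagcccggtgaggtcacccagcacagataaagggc
Mmp8, chr9:7558279-7558428, plus strand: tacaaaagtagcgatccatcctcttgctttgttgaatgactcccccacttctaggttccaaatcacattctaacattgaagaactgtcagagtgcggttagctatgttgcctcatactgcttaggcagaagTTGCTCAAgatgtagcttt
Camp, chr9:109849618-109849706, minus strand: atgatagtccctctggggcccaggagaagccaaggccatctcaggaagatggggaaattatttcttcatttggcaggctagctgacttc
Lcn2, chr2:32387798-32387850, minus strand: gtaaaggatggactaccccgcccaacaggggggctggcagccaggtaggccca

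Over the full 250 bases before each RefSeq start, TTNNGNAA was found 3 times for Ngp, 2 times for Ltf, 2 times for Mmp8, 1 time for Lcn2 and 0 times for Camp. It was found 0 times for Mpo, Elane, Prtn3 and Ctsg, and 36.8% of the 32851 RefSeq windows of the same length held it at least once. GAGGAA, a form of the PU.1 site, was found in 7 of the 9 windows of members, Camp and Ngp being those without it, against 23.3% of all windows. TGTGGT, a form of the RUNX site, was found for Ctsg alone, against 14.0% of all windows. The motifs were searched on both strands, and matches of different motifs may overlap. A match describes letters only. The RefSeq promoter table matched 9 of the 10 members.

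The libraries held 37180157 to 55717378 counts. CD replicates 3 and 4 differed from the rest: 34495 and 33449 genes had a count in them, against 21571 to 24556 elsewhere. Each of 15 markers of mature neutrophils, such as S100a8, S100a9 and Retnlg, had counts in every library, and their summed level was 110013 and 111212 CPM in CD replicates 3 and 4, and 1972 and 1633 in the first 2 CD libraries, with 414 to 7424 in HFD. The 10 macrophage markers, also all with counts in every library, summed to 47193, 39580, 31038 and 25831 CPM in CD replicates 1 to 4. In HFD their sum was 10161 to 95960. Most of each CD sum was Lyz2, which neutrophils share, at 32072, 26387, 27697 and 22685 CPM. Of the others, C1qb was at 7854, 6926, 1167 and 1140 CPM in CD replicates 1 to 4. Fcgr1 went the other way, at 160, 138, 479 and 447 CPM, and not all of the 10 followed C1qb. Adgre1, which encodes F4/80, was at 100 and 93.4 CPM in CD replicates 3 and 4, with 209 and 231 in the first 2 CD libraries and 198 to 682 in HFD. TMM scaling factors ran from 0.69 in CD replicate 3 to 2.02 in HFD replicate 1, a 2.92-fold range, so that levels in CPM depend on the scaling. In bulk RNA, fewer cells of a type and less RNA per cell cannot be told apart.

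The primary granule genes differed between libraries in a way that did not follow diet. Mpo (ENSMUSG00000009350, chromosome 11, 87793581 to 87804413, GRCm38), which encodes myeloperoxidase, the enzyme that makes hypochlorous acid, was at 1.56, 2.17, 1.53 and 1.86 CPM in CD replicates 1 to 4. In HFD replicates 1 to 4 it was at 4.88, 5.37, 0.570 and 0.887 CPM. The CD values lay together, and between the high HFD replicates 1 and 2 and the low HFD replicates 3 and 4, whose means differed 7.04-fold. The log2 fold change of HFD over CD was 0.73 ± 0.65 (SE, adjusted p = 0.651 in edgeR). It was 0.38 without HFD replicate 1, 0.29 without HFD replicate 2 and 0.18 with the replicate block.

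Elane (ENSMUSG00000020125, chromosome 10, 79886247 to 79888215), which encodes neutrophil elastase, was at 1.80, 1.72, 4.48 and 1.89 CPM in CD and at 8.05, 3.44, 0.166 and 1.16 CPM in HFD. As for Mpo, HFD replicates 1 and 2 were high and HFD replicates 3 and 4 low, with the lowest and the highest library of all 8 both in HFD and 48.5-fold apart, the lowest resting on 7 counts in HFD replicate 3. The log2 fold change was 0.39 ± 0.84 (adjusted p = 0.871 in edgeR), and it was -0.60 without HFD replicate 1 and -0.17 with the replicate block. Prtn3 (ENSMUSG00000057729, chromosome 10, 79874476 to 79883174), which encodes proteinase 3, lies 3.07 kb before Elane on the same strand. It did not share that spread, with 3.81, 4.06, 4.28 and 4.91 CPM in CD and 2.89, 2.95, 4.25 and 5.32 CPM in HFD. Its highest library was 1.84-fold above its lowest, and its log2 fold change was -0.15 ± 0.29 (adjusted p = 0.853 in edgeR). With scaling by library size alone the Prtn3 value was 0.18, where the median of all genes tested moved from 0.01 to 0.42. The ratio of Elane to Prtn3 in FPKM ran from 0.0625 in HFD replicate 3, on those 7 counts of Elane, to 4.95 in HFD replicate 1. Plppr3, on the opposite strand, overlaps Prtn3, and no step that marks the strand is described, so reads of this pair cannot be told apart in the overlap.

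Ctsg (ENSMUSG00000040314, chromosome 14, 56099881 to 56102574), which encodes cathepsin G, had 6, 12, 11 and 0 counts in CD and 0, 38, 8 and 4 counts in HFD. It did not pass the filter on low counts and was not tested. Where it had 0 counts, a level of up to 0.109 CPM in CD replicate 4 and 0.0316 CPM in HFD replicate 1 is allowed (3 counts, counting error only). The summed FPKM of the 4 primary genes was 3.39 to 4.78 in CD (4.2 ± 0.624, SD, n = 4). In HFD it was 19.5, 7.38, 2.36 and 2.82 (8.01 ± 7.98, SD, n = 4), so the CD range lay inside the HFD range. The log2 ratio of these means was 0.93, 0.23 in summed CPM, and -0.00 in FPKM without HFD replicate 1.

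**Figure D1:**
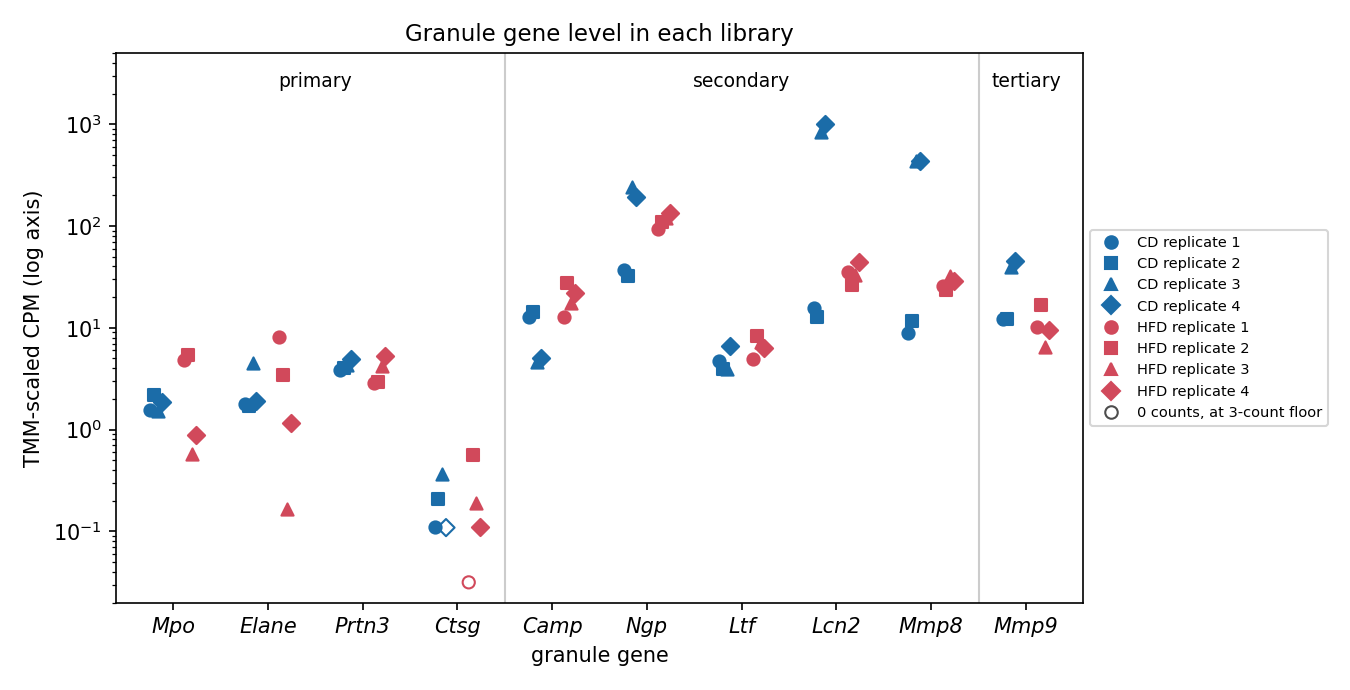
TMM-scaled CPM (log axis) of each granule gene in each library, CD in blue and HFD in red, with a symbol for each replicate number and open symbols for 0 counts drawn at the level of 3 counts. Lcn2 and Mmp8 of CD replicates 3 and 4 sit far above all other libraries, Camp of the same libraries sits below all others, and Mpo and Elane spread most within HFD among the tested genes.

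Lcn2 and Mmp8 were far higher in CD replicates 3 and 4 than in the other 6 libraries. Lcn2 (ENSMUSG00000026822, chromosome 2, 32384633 to 32387797), which encodes lipocalin 2, a protein that withholds iron from bacteria by binding their siderophores, was at 15.8, 12.7, 843 and 1003 CPM in CD. In HFD it was at 35.6, 26.2, 32.9 and 44.1 CPM. CD replicates 3 and 4 were thus the highest of all libraries and CD replicates 1 and 2 the lowest, with all 4 HFD libraries between them. The mean of CD replicates 3 and 4 was 64.8-fold that of CD replicates 1 and 2. The log2 fold change over all 8 libraries was -3.76 ± 1.24 (adjusted p = 0.287 in edgeR), and 1.28 ± 0.315 without CD replicates 3 and 4 (adjusted p = 0.737 in edgeR).

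Mmp8 (ENSMUSG00000005800, chromosome 9, 7558456 to 7568485), which encodes the neutrophil collagenase, had the same order. It was at 8.84, 11.7, 432 and 437 CPM in CD and at 25.8, 23.5, 32.4 and 28.9 CPM in HFD. Again the HFD libraries lay between the pairs of CD libraries, whose means differed 42.3-fold. The log2 fold change was -3.01 ± 1.10 (adjusted p = 0.313 in edgeR), and 1.42 ± 0.293 without CD replicates 3 and 4 (adjusted p = 0.653 in edgeR). The ratio of Lcn2 to Mmp8 in FPKM stayed between 0.938 and 2.12 in the 8 libraries, while Lcn2 ran from 4.53 to 248 and Mmp8 from 3.23 to 117 FPKM.

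Ngp (ENSMUSG00000032484, chromosome 9, 110419747 to 110423012), which encodes neutrophilic granule protein, a cathelicidin-related protein found in mouse, had the highest mean FPKM of the set. It was at 36.8, 32.1, 241 and 192 CPM in CD and at 94.2, 110, 119 and 134 CPM in HFD. The order of the groups of libraries was that of Lcn2 and Mmp8, and CD replicates 3 and 4 were 6.30-fold above CD replicates 1 and 2. Over all libraries it had a log2 fold change of -0.14 ± 0.61 (adjusted p = 0.945 in edgeR). It was 1.72 ± 0.317 without CD replicates 3 and 4 (adjusted p = 0.488 in edgeR) and 0.46 with scaling by library size alone, so the direction for Ngp depended on both.

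Camp (ENSMUSG00000038357, chromosome 9, 109847379 to 109849617), which encodes the cathelicidin antimicrobial peptide, went the other way in CD replicates 3 and 4. It was at 12.7, 14.4, 4.65 and 5.02 CPM in CD and at 12.8, 27.3, 17.4 and 22.0 CPM in HFD. CD replicates 3 and 4 were the lowest of all libraries, at 0.357 times the mean of CD replicates 1 and 2, and HFD replicate 1 fell within the CD range. On the authors' FPKM scale the groups did not overlap, with 14.9, 17.8, 3.78 and 4.27 in CD and 29.2, 36.7, 18.5 and 18.1 in HFD. That separation did not hold in CPM, and the share of all genes that separate in FPKM was not counted. In CPM its log2 fold change was 1.11 ± 0.42 (adjusted p = 0.323 in edgeR), and 0.55 without CD replicates 3 and 4.

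Ltf (ENSMUSG00000032496, chromosome 9, 111019271 to 111042767), which encodes the iron-binding protein lactoferrin, varied least of the secondary genes. It was at 4.73, 3.90, 3.92 and 6.62 CPM in CD and at 4.91, 8.27, 7.26 and 6.29 CPM in HFD. The diets overlapped, with a log2 fold change of 0.48 ± 0.28 (adjusted p = 0.486 in edgeR). Camp, Ngp and Ltf lie within 1195 kb of each other on chromosome 9, and their highest library was 5.89-fold, 7.53-fold and 2.12-fold above their lowest.

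The ratios within a library show the divergence inside the secondary class without regard to scaling between libraries. The ratio of Lcn2 to Camp in FPKM was 52.6 and 58.0 in CD replicates 3 and 4, with 0.358 and 0.255 in the first 2 CD libraries and 0.276 to 0.803 in HFD. That of Ngp to Camp was 32.4 and 23.9 in these libraries, against 1.38 to 4.57 for the other 6. That of Camp to Ltf was 5.48 and 3.48, against 11 to 17.0. In HFD the ratio of Ngp to Camp was 2.49 to 4.57, above the 1.80 and 1.38 of CD replicates 1 and 2.

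**Figure D2:**
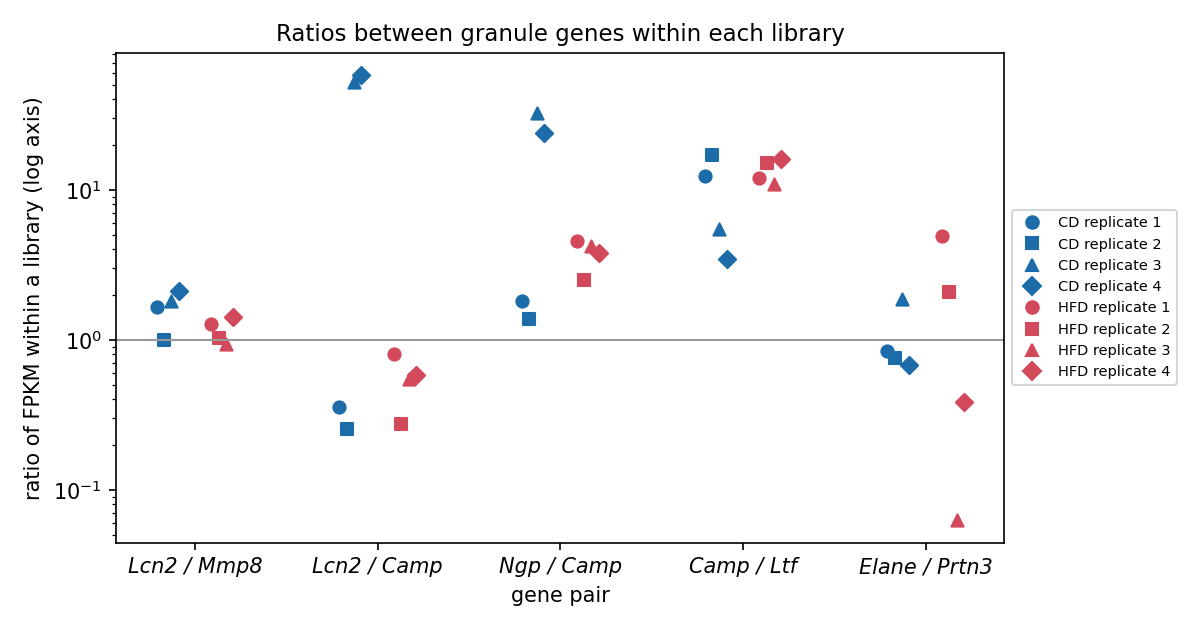
Ratio of FPKM between pairs of granule genes within each library (log axis), CD in blue and HFD in red, with a symbol for each replicate number. Lcn2 to Mmp8 stays between 0.938 and 2.12, while Lcn2 to Camp reaches 52.6 and 58.0 in CD replicates 3 and 4 and is below 1 in the other 6 libraries.

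Mmp9 (ENSMUSG00000017737, chromosome 2, 164940780 to 164955850) was the member of the tertiary class and encodes gelatinase B. It was at 12.1, 12.1, 39.2 and 45.5 CPM in CD and at 10.2, 16.7, 6.55 and 9.50 CPM in HFD. CD replicates 3 and 4 were highest, at 3.49 times the mean of CD replicates 1 and 2, and the rest of the CD libraries lay within the HFD range. Its log2 fold change was -1.34 ± 0.49 (adjusted p = 0.313 in edgeR), and -0.18 without CD replicates 3 and 4. In FPKM the log2 ratio of the diet means was -0.73, and 0.05 without CD replicates 3 and 4. Mmp8 was 16.1 and 14.1 times Mmp9 in FPKM in CD replicates 3 and 4, against 1.06 to 7.25 times elsewhere.

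By FPKM, Ngp ranked first in 6 libraries and Lcn2 in CD replicates 3 and 4. Camp had rank 2 in those 6 libraries and rank 5 in CD replicates 3 and 4. Lcn2 took 44.4% and 51.2% of the summed FPKM of the set in CD replicates 3 and 4, against 6.22% to 10.1% elsewhere, and Camp took 0.844% and 0.883% there, against 12.6% to 29.5% elsewhere. Ngp took 56.2% to 63.5% in HFD, against 45.8%, 40.8%, 27.3% and 21.1% in CD replicates 1 to 4. Mpo and Ctsg were last in most libraries, and the mean FPKM over 8 libraries was 0.741 for Mpo and 80.9 for Ngp. Among Elane, Prtn3 and Ltf, with means of 3.23, 1.98 and 1.48, the order changed from library to library.

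**Figure D3:**
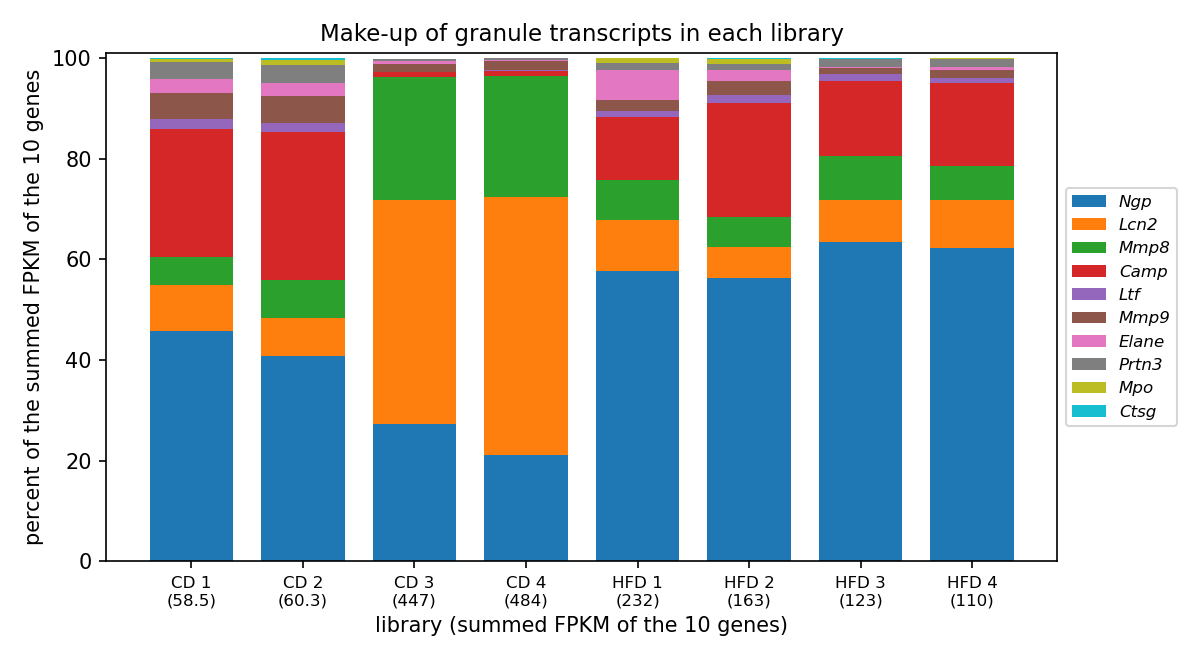
Share of each gene in the summed FPKM of the 10 granule genes, for each library, with that sum in parentheses. Lcn2 and Mmp8 fill most of the bars of CD replicates 3 and 4, and Ngp and Camp most of the other 6.

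The main comparison asks whether cells from HFD-fed mice differ from those of CD-fed mice. Of the 10 granule genes, 9 passed the filter and were tested, and 0 were called in either direction in edgeR, against 0.00576% of all 17367 genes tested (1 gene, Ass1, and 0 genes with the replicate block). At an unadjusted p under 0.05 there were 4 (Camp higher and Lcn2, Mmp8 and Mmp9 lower), against 12.9% of all genes tested. None had all 4 HFD values on the same side of all 4 CD values in CPM, against 3.57% of all genes above and 4.80% below. DESeq2 called Lcn2 lower (log2 fold change -3.81, adjusted p = 0.0488), against 4.89% of its genes with an adjusted p. Without the filter on low counts edgeR called Lcn2 and Mmp8 lower (adjusted p = 0.0119 and 0.0287), against 0.973% of genes. The median over all 42649 genes, low-count genes included, was -1.21 with DESeq2 and -1.01 with no filter. The tested granule genes did not shift down with it. In the main fit Lcn2 was at -3.76, against -3.81 with DESeq2 and -3.54 with no filter. For Camp these values were 1.11, 1.10 and 1.17.

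Without CD replicates 3 and 4 the comparison read differently. In that fit 0% of 18662 genes were called in edgeR (1025 at an unadjusted p under 0.05). All 4 HFD values of Ngp, Ltf, Lcn2 and Mmp8 lay above CD replicates 1 and 2 in CPM, against 7.81% of all genes tested there. For Ltf this did not hold in FPKM, with 1.21 in CD replicate 1 and 1.12 in HFD replicate 4. No label sets CD replicates 3 and 4 apart, and they had the highest CPM of Ngp, Lcn2 and Mmp8. Leaving them out therefore lowers the CD level of these genes by construction. The values against CD replicates 1 and 2 are a description and no support for a diet difference. The mean in HFD was 3.31-fold that of CD replicates 1 and 2 for Ngp, 2.43-fold for Lcn2, 2.69-fold for Mmp8, 1.47-fold for Camp and 0.885-fold for Mmp9. The summed FPKM of the secondary class was 51.4, 52.5, 436 and 472 in CD (253 ± 233, SD, n = 4) and 207, 150, 119 and 105 in HFD (146 ± 45.1). The log2 ratio of these means was -0.80, and 1.49 without CD replicates 3 and 4. In summed CPM, over all 8 libraries, it was -2.03.

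**Figure D4:**
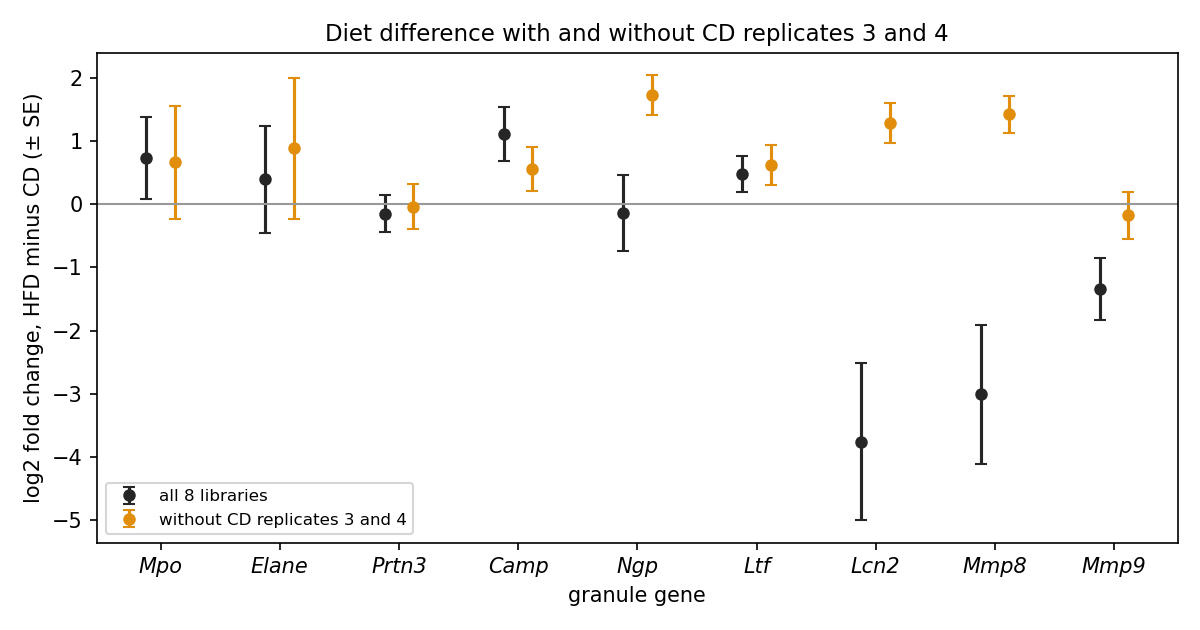
Fitted log2 fold change, HFD minus CD, of the 9 tested granule genes with its SE, over all 8 libraries (black) and without CD replicates 3 and 4 (orange). Lcn2 goes from -3.76 to 1.28, Mmp8 from -3.01 to 1.42 and Ngp from -0.14 to 1.72, and Mpo and Prtn3 differ little between the fits.

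Other granule genes, from lists written with earlier results of these data known, were not called either, and all counts here are 0 called in edgeR. Of 12 other secondary granule genes, 11 were tested, 10 of them with a negative log2 fold change, and the median was -1.72 beside 0.01 for all genes tested (6 lower at an unadjusted p under 0.05). Those of highest FPKM were Chil3, a chitinase-like protein, Hp, haptoglobin, and Cyba, a subunit of the NADPH oxidase. Chil3 was at 441, 316, 18493 and 14815 CPM in CD and 546 to 3602 in HFD, and Hp at 116, 106, 811 and 765 in CD and 102 to 186 in HFD. Cyba did not share this, at 2639 to 3626 CPM in CD and 808 to 4693 in HFD.

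Of 12 other tertiary granule and secretory vesicle genes, 10 were tested, 8 of them negative, with a median of -1.12 (unadjusted p under 0.05 for 5 lower and 1 higher). Fpr1, a receptor for formyl peptides of bacteria, was at 14.5, 15.1, 539 and 480 CPM in CD and at 12.3 to 33.2 in HFD. Its paralog Fpr2 was at 16.1, 9.43, 155 and 165 CPM in CD and 12.2 to 19.4 in HFD, and Mcemp1 at 48.6, 46.1, 560 and 548 in CD and 34.5 to 62.0 in HFD. All of these were high in CD replicates 3 and 4, as Lcn2 and Mmp8 were.

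Other primary granule and promyelocyte genes split. Of 10 genes, 7 were tested, with a median of -0.37 (1 lower at an unadjusted p under 0.05). Srgn, the proteoglycan core of granules, was at 1953, 1448, 16181 and 15802 CPM in CD and 576 to 3254 in HFD. Ctsc, the protease that activates the granule serine proteases, was at 900 to 1287 CPM in CD and 602 to 1281 in HFD, and the lysosomal protease Ctsd at 1274 to 1562 in CD and 1011 to 4191 in HFD. These 3 are also expressed by macrophages. Ms4a3 and Prss57, named after their values were seen as genes of early granulocyte precursors, were at 0 to 0.929 and 0 to 0.509 CPM over the 8 libraries.

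Of 12 transcription factors of granulopoiesis, 10 were tested, with a median of -0.36 (1 higher and 2 lower at an unadjusted p under 0.05). By FPKM the leading members were Cebpb, at 527 to 1578 CPM in CD and 495 to 1213 in HFD, Spi1, which encodes PU.1, at 253 to 349 and 160 to 301, and Cebpd, at 17.3 to 23.6 and 6.23 to 46.2. Cebpe, which encodes C/EBP epsilon and was named after its values were seen, was at 2.59, 3.02, 12.9 and 12.7 CPM in CD and at 2.30, 1.32, 0.949 and 0.942 CPM in HFD. All its HFD values lay below all its CD values, as in 4.80% of all genes tested, and the log2 fold change was -2.48 ± 0.60 (adjusted p = 0.244 in edgeR). Gfi1, a repressor needed early in granulopoiesis and also named after its values were seen, had 8 and 6 counts in CD replicates 1 and 2 and 0 in the other 6 libraries.

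Inhibitors of granule proteases included Slpi, which inhibits elastase and cathepsin G. Slpi was at 1152, 996, 22406 and 19881 CPM in CD and at 82.2, 757, 362 and 819 CPM in HFD. All HFD libraries thus lay below all CD libraries, as in 4.80% of all genes tested (log2 fold change -4.46 ± 1.24, adjusted p = 0.259 in edgeR). Timp1, an inhibitor of matrix metalloproteinases, was at 60.0 to 114 CPM in CD and 14.2 to 82.5 in HFD, and Timp2 at 92.0 to 276 and 160 to 671. Of 12 genes of this list, 11 were tested, with a median of -1.52 (unadjusted p under 0.05 for 6 lower and 1 higher).

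Of 10 genes listed for cycling neutrophil precursors, most of which other dividing cells share, all were tested and 9 were positive, with a median of 0.76 (2 higher and 1 lower at an unadjusted p under 0.05). The negative gene was Chil1, a chitinase-like protein, at 2.90, 3.87, 105 and 93.0 CPM in CD and 3.30 to 5.69 in HFD, high in the same libraries as Lcn2 and Mmp8 (log2 fold change -3.60, adjusted p = 0.264 in edgeR). It was named after its values were seen. Stmn1, a regulator of microtubules, was at 61.9, 57.3, 20.5 and 21.6 CPM in CD and at 54.4, 61.7, 223 and 222 in HFD. Tuba1b was at 191 to 546 CPM in CD and 234 to 498 in HFD, and Hmgb2 at 160 to 257 and 53.2 to 433. As for Camp, the levels of Stmn1 in CD replicates 3 and 4 were the lowest of all libraries.

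Markers of other cells moved with the same libraries. All 15 mature neutrophil markers were tested and had a negative log2 fold change (median -3.91, 14 at an unadjusted p under 0.05, 0 called). S100a8 was at 1122, 926, 71829 and 73616 CPM in CD and at 91.1, 1429, 2881 and 5396 CPM in HFD, S100a9 at 218 to 19948 in CD and 44.7 to 776 in HFD, and Retnlg at 50.7 to 11989 and 53.3 to 442. The 8 classical monocyte markers, such as Ly6c2, Plac8 and Chil3, summed to 24590 and 20926 CPM in CD replicates 3 and 4, against 1022 to 4914 in the other 6 libraries. Most of that sum was Chil3, which is also in the list of other secondary granule genes. Ccr2 and Fn1 of the same list did not share the pattern, at 40.3 to 71.6 and 104 to 224 CPM in CD and at 17.3 to 55.6 and 98.2 to 259 in HFD. Erythroid markers, mostly the globins Hba-a1, Hba-a2 and Hbb-bs, summed to 19168 and 17635 CPM in CD replicates 3 and 4, against 275 to 7056 elsewhere. Of the macrophage markers, the complement gene C1qb was at 1140 to 7854 CPM in CD and 2483 to 21195 in HFD, C1qa at 271 to 1989 and 797 to 8858, and Lyz2, which neutrophils share, at 22685 to 32072 and 3595 to 54126. The part of these cells in the levels of Lcn2, Mmp8, Ngp and Mmp9 was not tested.

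The 8 eosinophil markers, led by Prg2, Ear6 and Ccr3, summed to 3.23 to 7.67 CPM in CD and 1.16 to 4.30 in HFD, and the 8 basophil and mast cell markers, led by Gata2, Mcpt8 and Prss34, to 1.16 to 7.46 and 3.33 to 7.63. Prg2 was at 3.45 and 3.60 CPM in HFD replicates 1 and 2 and at 0.427 and 0.166 in HFD replicates 3 and 4, a division like that of Mpo and Elane, while Ear6 was at 0, 0.0595, 0.309 and 0.471 and Siglecf at 0.0949, 0.0744, 0.261 and 0.277 CPM in HFD replicates 1 to 4. The 8 progenitor markers summed to at most 78.9 CPM in CD and to 66.4 to 184 in HFD, with Cd34 at 106 and 146 CPM in HFD replicates 1 and 2 and at 34.7 and 37.3 in HFD replicates 3 and 4. Sox4 was at 28.7 and 23.6 CPM in HFD replicates 1 and 2 and 14.6 and 11.7 in HFD replicates 3 and 4, and Spink2 at 3.99 to 6.23 in HFD. Other progenitor markers did not share this division, with Flt3 at 2.32, 7.50, 14.1 and 11.7 CPM and Kit at 0.664, 0.476, 1.09 and 0.554 CPM in HFD replicates 1 to 4. The part of these cells in the levels of Mpo and Elane was not tested.

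For each tested member, the genes of most similar pattern were taken by the root mean square difference of log2 CPM, centred on the mean of each gene over the 8 libraries. A small value means that deviations from the gene mean were alike in size as well as direction. Deviations were not scaled to the spread of each gene, so genes that vary little have small values among themselves. Values of different members are therefore not on a like footing, and the measure is a description over 8 libraries. Lcn2 and Mmp8 were each other's nearest gene of all those tested, at 0.40. Lcn2 was then nearest to Wfdc21 (0.46) and Krt83 (0.50), and Mmp8 to Krt83 (0.40) and Gm39321 (0.47). No other member had a member among its 3 nearest genes. Camp was nearest to Ptprm (0.17), Nek2 (0.18) and Cadm1 (0.21), Ngp to F13a1 (0.20), Avil (0.24) and Ecm1 (0.25), and Ltf to Dis3l2 (0.15) and Dpy19l4 (0.15). Mmp9 was nearest to Fas (0.16), Sod2 (0.18) and Glipr2 (0.19). Mpo was nearest to C1s1 (0.22), Dusp14 (0.33) and Arsj (0.33), Elane to Mfap3l (0.45), Gm11663 (0.48) and Dkkl1 (0.50), and Prtn3 to Supt4a (0.08), Ssr4 (0.09) and Gng10 (0.10). Mfap3l, Gm11663 and Dkkl1 reached at most 0.643, 0.422 and 1.23 CPM, with 0 in HFD replicate 3. Avil was at 0.0367 to 0.564 CPM, so the patterns of these genes rest on few counts. The member nearest to Camp was Ltf (0.76), with 3549 genes nearer, and the member nearest to Mpo was Elane (0.87), with 2028 genes nearer to Mpo and 72 nearer to Elane.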

How the data were processed

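Tools named in the submitters' processing notes were StringTie 1.3.4d, HISAT2 2.0.4 and cutadapt 1.9. Build, counter and settings: not given in the sources used here. Of 42649 identifiers, 42502 were found in GENCODE M21 (GRCm38), 39410 of them at identical coordinates, and positions are given on that build. Spans of members are those of the deposited table. For Lcn2 the span differed, as M21 extends it to 32388252, so the letters printed upstream of Lcn2 lie inside its M21 span. The deposited table held FPKM as computed by the authors and raw counts per gene, not normalised. The labels' protocols describe PCR-amplified SMARTer cDNA and mention neither molecular identifiers nor strand marking, so counts are taken as those of amplified reads.

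Counts were tested with edgeR 4.0.16 in R 4.3.3 (filterByExpr, TMM, quasi-likelihood F test, diet only, two-sided, Benjamini-Hochberg over 17367 genes, threshold 0.05), and the code was tested on simulated data. SE is the log2 fold change over the root of F. Alternatives were DESeq2 1.42.0, library size only, no filter, each library left out, CD replicates 3 and 4 left out, a replicate block, and limma 3.58.1 on log2(FPKM + 1) and log2(FPKM + 0.1). The block treated libraries of the same number as pairs. Same-number libraries of both diets correlated in their deviations from the diet mean at 0.11, 0.29, 0.22 and 0.18. Other numbers correlated at up to 0.32, so these values do not single out the same number. Pairs within replicates 1 and 2, or within replicates 3 and 4, were all positive (0.11 to 0.32). Pairs across that division were all negative (-0.32 to -0.13). Deviations within a diet cancel out over its libraries by construction, so these signs depend on each other and are not separate observations. Libraries of the same diet differed by more than sampling noise (median chi-square per gene 3.50 to 101). In CD, replicates 1 and 2 were close (4.66), as were replicates 3 and 4 (3.50), while the other CD pairs were at 24.6 to 27. In HFD the pairs were at 10.9 to 101. The SD and SE values treat the libraries of a diet as 4 separate units, and whether the close CD libraries are independent was not tested.

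The members and lists were chosen with earlier results of these data known. All members were named. Of each list the genes called, or else the 3 of highest mean FPKM, were named, and exceptions are stated. Log2 CPM for similarity used a prior count of 2. Of the genes nearest to Ltf, 1 is not reported here.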

Additional observations from a re-analysis of the deposited data

Results flagged for a closer look

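Elane in CD replicate 3 was at 4.48 CPM, where CD replicates 1, 2 and 4 lay between 1.72 and 1.89, which makes its gap to the nearest library 0.937 of the CD range. It was the single case among 24 groups of 4 libraries examined for a lone high or low library, and chance alone gives about 1 in 20.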

How the results depend on the processing

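The count of genes called, 1 over all 8 libraries, was 0 with library size only, with the replicate block, without CD replicates 3 and 4 and with limma on log2(FPKM + 1). It was 5 with limma on log2(FPKM + 0.1), 415 with no filter and 1228 with DESeq2, and 0 to 1 with a library left out. The count of granule genes called, 0, became 2 with no filter (Lcn2 and Mmp8) and 1 with DESeq2 (Lcn2). It was 0 with each library left out. With a library left out, Elane ranged from -0.60 to 0.86 and Ngp from -0.41 to 0.41. Elane changed direction without HFD replicate 1 (-0.60), with the replicate block (-0.17) and with limma on log2(FPKM + 0.1) (-0.07). Prtn3 did so with library size only (0.18) and with limma (0.11 and 0.16 at pseudocounts of 1 and 0.1). Ngp did so with library size only (0.46), no filter (0.05), the replicate block (0.40), limma (0.73 and 0.75), without CD replicate 3 or 4 (0.41 and 0.15) and without both (1.72). Without both, Lcn2 and Mmp8 were at 1.28 and 1.42, and the log2 ratio of the secondary class was 1.49. Their direction rests on those 2 libraries. With the block Lcn2 was at -1.75 and Mmp8 at -1.29, and the block changed no call of a granule gene. The fitted fold changes of Mpo, Camp, Ltf and Mmp9 kept their direction in each alternative, though the ratio of mean FPKM of Mmp9 went from -0.73 to 0.05 (log2) without CD replicates 3 and 4. The other causes were not tested. Depth limits Ctsg, with 79 counts over 8 libraries, and Elane in HFD replicate 3, with 7.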
